A study of Mus musculus with 800 samples.

Results

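Vomeronasal sensory neurons send their axons to the accessory olfactory bulb. The 9 genes described here encode surface receptors, adhesion molecules and a ligand, of families known from axon guidance or adhesion. The genes are Nrp1, Nrp2, Robo1, Robo2, Slit1, Kirrel2, Kirrel3, Tenm2 and Ncam2. They were chosen by name, as 9 rows of a table of 28963 genes. The cells came from the vomeronasal epithelium of 7 male mice, 66 days old (given elsewhere in the labels as 9 weeks), that carried GFP at the Omp locus as OMP(GFP/wt); the line is B6;129P2-Omptm3Mom/MomJ. GFP replaces one copy of the olfactory marker protein gene in these mice, so sorting on GFP selected cells with an active Omp promoter, and every cell carries 1 functional copy of that gene. Tissue was pooled in 1 tube of 3 mice and 1 of 4, and sorted live cells were loaded on 1 Fluidigm C1 chip of 800 chambers; the labels do not tie a chamber to a mouse or a pool.

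All results below describe cells of 1 chip. The groups compared are classes of cells within it, each is 1 sample, and there is no replicate and therefore no test and no p-value. Intervals are 95% exact Clopper-Pearson intervals for shares and cover counting error only.

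Neurons of the apical layer carry receptors of the V1R family and the G protein subunit Gnai2, and project to the anterior accessory bulb. Neurons of the basal layer carry V2R receptors and Gnao1 and project to the posterior bulb. Neuropilins bind class 3 semaphorins, Robo receptors bind Slit ligands, and both are known for steering axons away from a source. Kirrels are immunoglobulin-family adhesion proteins that sort axons into glomeruli, teneurins pair synaptic partners across the cleft, and Ncam2 is an adhesion protein of olfactory axons.

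Of the chambers labelled as holding a single cell, 71.8% were apical (at least 10 counts of Gnai2 and more than 2 times as many as of Gnao1), 18.5% (73 cells) basal by the converse rule, 14 cells mixed and 2 neither. A further 22 held at least 2 of the 3 sustentacular-cell genes Cbr2, Cyp2a5 and Sox2 at 10 counts and were kept apart. The median total was 150003 counts in apical and 152229 in basal cells, and 20731 in the chambers labelled empty. Omp, the marker of mature neurons that the sort relied on, was at 10 or more counts in 98.2% of apical and 98.6% of basal cells, and in 80.6% of empty chambers. The class cut was not sharp for all cells: Gnai2 and Gnao1 lay within 4-fold of each other in 46 of 370 cells, among them 16 apical and 16 basal ones. Cyp2a5 was not held by any apical or basal cell. The 22 cells had been kept apart by Cbr2, Cyp2a5 and Sox2, so that step lowers the shares of these genes in the classes. The keratins Krt8 and Krt18, which the sustentacular list also includes, were held by 89.04% and 95.9% of basal cells and by 7.77% and 37.5% of apical cells, while Cbr2 was held by 10.96% and 16.96%; the part of sustentacular RNA in the results was not tested.

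A cell is said below to hold a gene when it has 10 or more counts of it. Over all genes except receptors, the distribution of counts per cell had a low point at 19 and a peak at 39 counts. Among the 9 genes the median count of the cells holding a gene ran from 22 for Slit1 to 57 for Kirrel2. Shares of cells holding a gene are given beside the summed counts on which folds rest. A gene was called higher in a class when it had at least 50 counts in all, was at least 2-fold higher per total count (receptor genes left out of the total), and was at least 1.5-fold higher in the same direction among chambers numbered 1 to 10 and among those numbered 11 to 20 in their titles. This is a rule of size, not a test.

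The rule was passed easily by genes found in few cells, because a handful of cells then set the sums. Between apical and basal cells, 25.6% of genes held by under 2% of cells in both classes were called higher in apical cells, against 2.24% of the 5261 genes held by at least 25% of cells in either class. The corresponding shares for basal cells were 4.94% and 2.79%. A call is given below with the held share for that reason, and a call on a sparse gene carries little weight.

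The start regions of the 3 most widely held genes that separated the classes are shown for reference; Nrp2 and Ncam2 were higher in apical cells and Robo2 in basal cells. The bases are from RefSeq (GRCm38.p6), run 5′ to 3′ on the gene's strand, and end where the annotated gene begins, at chr1:62703067-62703284 (plus strand) for Nrp2, chr16:81200447-81200696 (plus strand) for Ncam2 and chr16:74411826-74412075 (minus strand) for Robo2. RefSeq lists 3 starts for Robo2, and the region of one further upstream, chr16:75092771-75093020 (minus strand), is shown as the only printed one with a match. That region lies outside the annotated gene, and the bases after it were not found in an annotated transcript. Whether this start is used in these cells was not tested. Capitals mark a match to TGACAG, a motif of MEIS proteins, on either strand.
Nrp2: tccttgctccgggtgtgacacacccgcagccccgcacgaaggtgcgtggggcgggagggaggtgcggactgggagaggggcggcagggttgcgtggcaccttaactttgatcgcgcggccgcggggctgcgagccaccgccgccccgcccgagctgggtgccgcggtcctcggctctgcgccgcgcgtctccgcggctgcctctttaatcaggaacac
Ncam2: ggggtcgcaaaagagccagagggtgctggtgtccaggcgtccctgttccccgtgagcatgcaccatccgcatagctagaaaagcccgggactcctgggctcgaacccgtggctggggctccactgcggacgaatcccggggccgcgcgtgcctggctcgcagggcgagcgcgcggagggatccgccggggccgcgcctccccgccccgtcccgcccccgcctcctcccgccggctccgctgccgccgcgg
Robo2: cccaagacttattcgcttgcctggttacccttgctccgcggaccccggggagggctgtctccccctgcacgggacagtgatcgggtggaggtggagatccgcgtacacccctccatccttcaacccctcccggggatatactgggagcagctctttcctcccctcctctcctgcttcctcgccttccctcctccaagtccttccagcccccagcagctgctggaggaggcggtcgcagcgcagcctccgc
Robo2 upstream: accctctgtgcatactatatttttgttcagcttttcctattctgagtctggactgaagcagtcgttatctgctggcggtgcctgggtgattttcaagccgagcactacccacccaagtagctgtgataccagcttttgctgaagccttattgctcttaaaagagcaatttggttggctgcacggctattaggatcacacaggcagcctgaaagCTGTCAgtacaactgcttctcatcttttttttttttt
These letters occurred in the 250 bases before 15.9% of 32851 RefSeq starts. The AP-2 motif GCCNNNGGC occurred, on either strand, before 13.7% of them and before none of the 9 starts listed for the 7 members found there. Meis2, an apical transcription factor, and Tfap2e, an AP-2 factor of basal neurons, were held by 94.3% and 1.06% of apical cells and by 10.96% and 52.1% of basal cells. A match is a description of letters only.

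Nrp2 and Robo2 divided the classes most. Nrp2 (ENSMUSG00000025969.15, chr1:62703285-62818695) is the neuropilin known from apical axons. Its median was 48 counts in apical cells (quartiles 26.5 and 64.5) and 2 in basal cells (quartiles 1 and 3, highest 38). It was held by 85.9% of apical cells (81.3% to 89.7%) and 8.22% of basal cells (3.08% to 17.0%). The ranges overlapped, since 40 apical cells held no Nrp2, but the shares were far apart. Its summed level was 13.2-fold higher in apical cells (log2 3.72), and 3.97 and 3.46 on the log2 scale in the 2 sets of chamber numbers.

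Robo2 (ENSMUSG00000052516.19, chr16:73891839-74411825), a Slit receptor known from basal axons, showed the converse. Its median was 0 counts in apical cells (range 0 to 52) and 39 in basal cells (quartiles 4 and 56). It was held by 3.18% of apical cells (1.46% to 5.95%) and 71.2% of basal cells (59.4% to 81.2%), and its summed level was 20.8-fold higher in basal cells (log2 ratio of apical over basal -4.38). None of the 22 sustentacular-marked cells held Robo2, which allows a share of up to 15.4%, while 22.7% of them held Nrp2.

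Ncam2 (ENSMUSG00000022762.18, chr16:81200697-81626828) was the third gene to separate the classes among those widely held. It had a median of 9 counts in apical and 1 in basal cells, with highest counts of 120 and 67. It was held by 49.1% of apical cells (43.2% to 55.1%) against 10.96% of basal cells (4.85% to 20.5%), a 4.45-fold higher summed level. Unlike Nrp2, it was at low counts in about as many apical cells as held it.

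Slit1 (ENSMUSG00000025020.11, chr19:41600257-41743665), a ligand of Robo receptors, was held by 17.7% of apical and 8.22% of basal cells, with a median of 0 in both, and its summed level was 2.19-fold higher in apical cells. It is the sparsest of the genes called. The intervals of its shares, 13.4% to 22.6% and 3.08% to 17.0%, overlap.

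In all, 3 of the 9 genes were called higher in apical cells, where 12.2% of 17102 genes were, and 1 in basal cells, where 6.1% were. Among genes held by 10% to 25% of cells, the stratum of Slit1, 6.35% were called higher in apical cells.

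The other 5 genes did not pass. Kirrel2 (ENSMUSG00000036915.17, chr7:30447534-30457690) was the most widely held of them, by 81.6% of apical and 68.5% of basal cells, with medians of 46 and 33 counts. Robo1 (ENSMUSG00000022883.11, chr16:72308306-73046095), the other Slit receptor here, was held by 42.8% of apical and 65.8% of basal cells (intervals 36.9% to 48.7% and 53.7% to 76.5%), and its summed level was 1.41-fold higher in basal cells. Kirrel3 (ENSMUSG00000032036.15, chr9:34485894-35036716) was held by 43.5% and 53.4%. Tenm2 (ENSMUSG00000049336.16, chr11:36006656-37235964) was held by 42.8% and 31.5%. Nrp1 (ENSMUSG00000025810.9, chr8:128358604-128503363), the other neuropilin, was held by 2 apical cells and 1 basal cell, so it gives no comparison.

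The chambers labelled empty also held these genes: Nrp2 in 21.5% of them, Kirrel2 in 34.2%, Ncam2 in 11.7%, Robo1 in 10.46%, Robo2 in 5.23% and Slit1 in 2.46%. The median empty chamber had 3 counts of Nrp2, 6 of Kirrel2, 1 of Ncam2 and 0 of Robo2. The shares therefore rest on a minority of chambers, and 63 empty chambers were deep enough to be thinned to 50000 counts. Thinned so, with 3 or more counts as the limit, 74.6% of these 63 held Nrp2, 80.95% Kirrel2, 44.4% Ncam2, 22.2% Robo2 and 100% Omp, against 87.7% of apical and 12.5% of basal cells for Nrp2. Whether these chambers hold cells was not tested, and the pooled shares are not a clean background. The share of Robo2 in apical cells, and those of Nrp2 and Ncam2 in basal cells, were below the pooled shares. The apical cells holding Robo2 had 17 to 52 counts of it, with a median of 40, and the empty chambers holding it also had a median of 40. The basal cells holding Nrp2 had 13 to 38 counts, with a median of 19.5, against 40 in the empty chambers holding it. Whether these counts stem from the cells themselves was not tested.

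**Figure D1:**
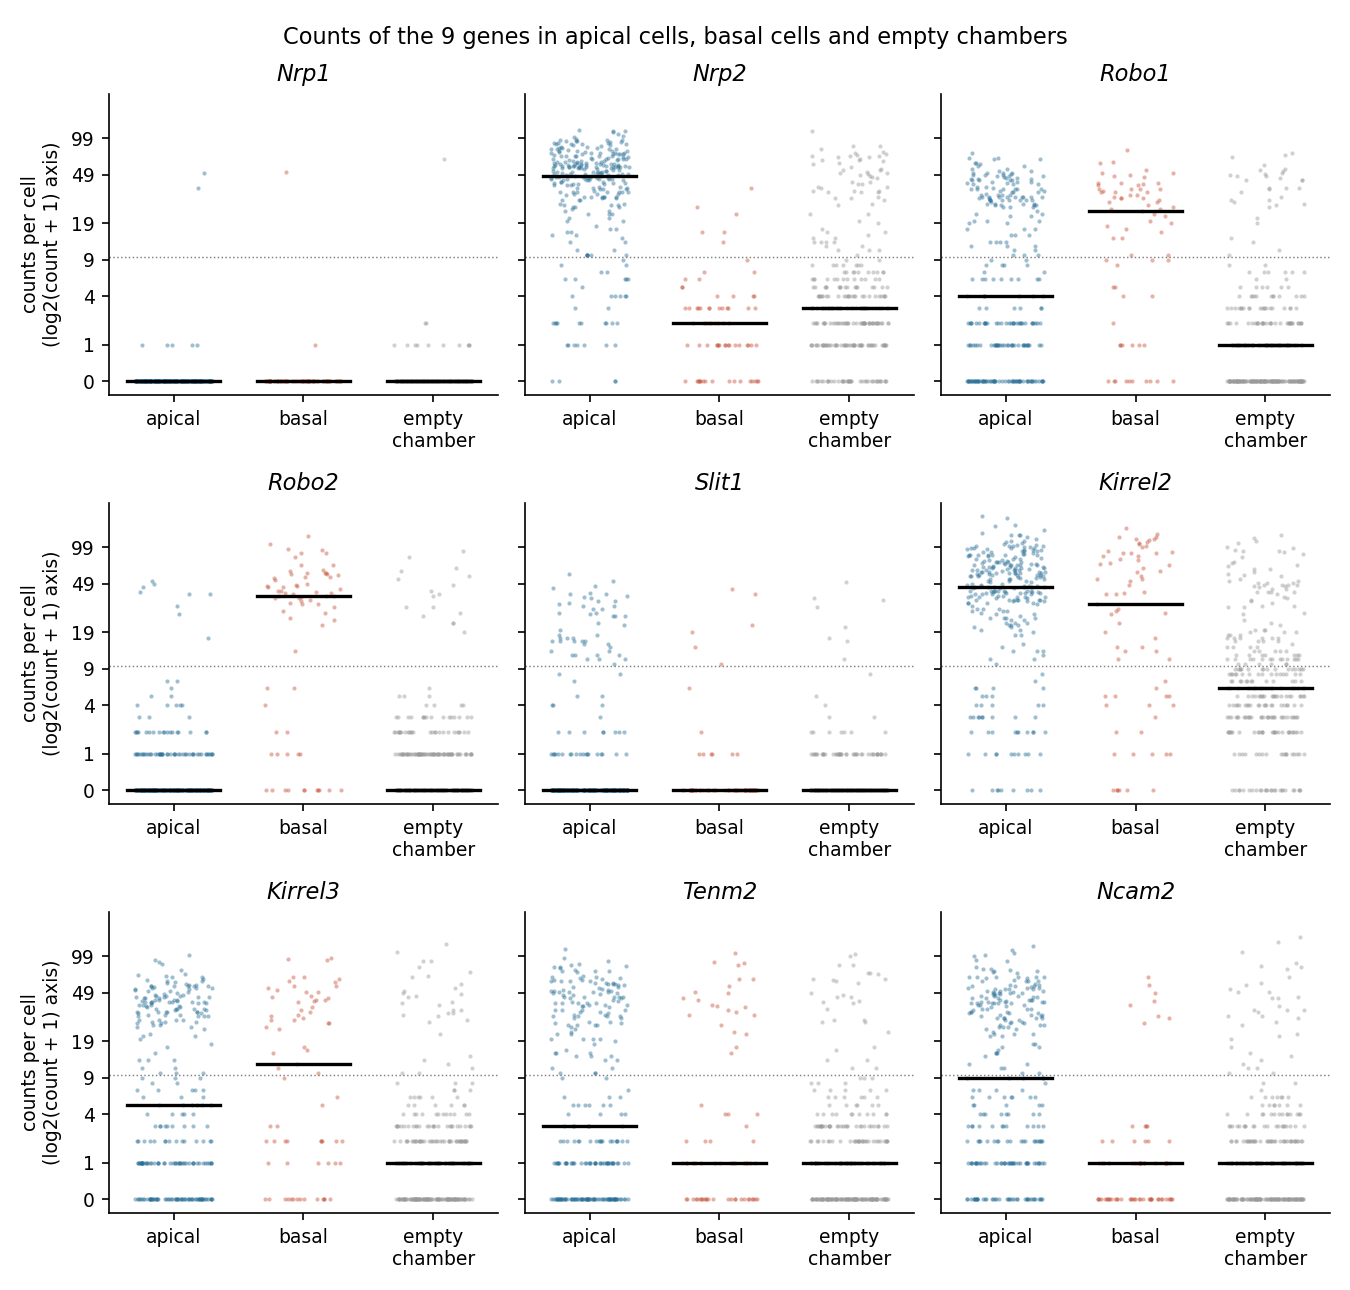
Counts per cell (log2(count + 1) axis) of each gene in apical cells, 73 basal cells and empty chambers; each point is a chamber, the black line the median and the dotted line the 10-count limit. Nrp2 has medians of 48 and 2 in apical and basal cells, Robo2 0 and 39, and Kirrel2 46 and 33.

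Nrp2 and Robo2 were seldom held by the same cell. Of the apical and basal cells together, 11 held both (3.09%, 1.55% to 5.46%), 66.9% held Nrp2 alone, 14.04% Robo2 alone and 16.01% neither. Most of this separation lies between the classes. Within apical cells, Robo2 was held by 2.88% of cells with Nrp2 (1.17% to 5.84%) and 5% of those without it (0.611% to 16.9%). Within basal cells, Nrp2 was held by 7.69% of cells with Robo2 and 9.52% of those without. The intervals overlap in each class, so no exclusion beyond the class difference could be seen at this number of cells.

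The cells against the class pattern were few. The 9 apical cells with Robo2 had 17 to 52 counts of it, 7 of them also held Nrp2, and 3 held Gnao1 at 25, 33 and 34 counts. The 6 basal cells with Nrp2 had 13 to 38 counts, below the apical median of 48, and 4 of them also held Robo2. Of the 14 mixed cells, 5 held both genes (35.7%, 12.8% to 64.9%), and of the 63 chambers labelled as holding several cells, 4 did (6.35%). Whether the mixed cells are 1 cell each was not tested.

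**Figure D2:**
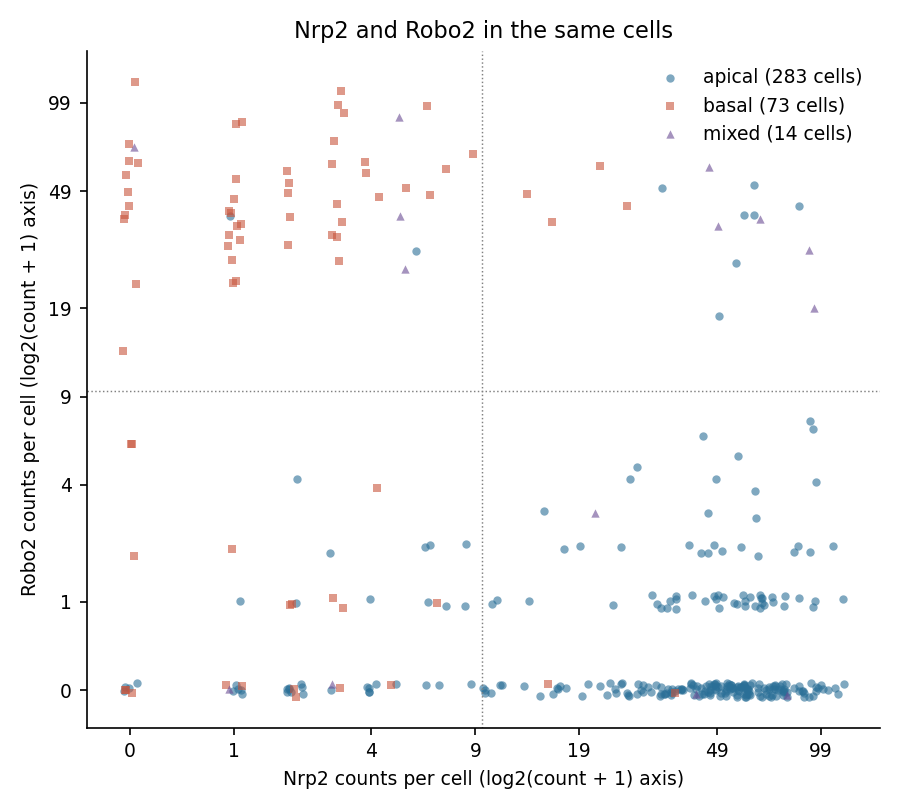
Nrp2 (x) against Robo2 (y) counts per cell, both on log2(count + 1) axes with small random offsets, for apical, basal and mixed cells; dotted lines mark the 10-count limit. The upper right corner holds 7 apical, 4 basal and 5 mixed cells.

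Likeness across cells repeated the class division for the class-separated genes. The cells were classed by Gnai2 and Gnao1, so a gene that separates the classes correlates with these by construction. Over the apical and basal cells and the 5261 genes held by at least 25% of either class, the counts most correlated with Nrp2 (Pearson's r of log2(counts per 10000 + 1), a description over cells that share depth, chip and class) were those of Gnai2 (0.62), Gng2 (0.61) and Meis2 (0.59). Those most alike Robo2 were Cnpy1 (0.72), Gnao1 (0.71) and Krt8 (0.64), and those most alike Ncam2 were Meis2 (0.33), Gng2 (0.31) and Gnai2 (0.30). Within the class where each gene was higher, the nearest genes were others. They were Asap1 for Nrp2 (0.21) and Cdk9 for Ncam2 (0.22) in apical cells, and Ugp2 for Robo2 (0.47) in basal cells. Within apical cells, where few held Robo2, its nearest genes were Tfap2e (0.41), Wscd2 (0.31) and Krt8 (0.30). These 3 were held by 52.1%, 35.6% and 89.04% of basal cells, and by 1.06%, 0.353% and 7.77% of apical cells. Kirrel2 had different neighbours: Pcp4l1 (0.49), S100z (0.44) and Ankrd63 (0.39), none of which divides the classes in this way, Pcp4l1 being held by 71.7% of apical and 58.9% of basal cells. The most alike gene reached only 0.28 for Tenm2 (Tmbim6), 0.27 for Kirrel3 (Kcnk10) and 0.27 for Robo1 (Pif1). These values, and those of Ncam2, are too weak to be a finding in sparse counts.

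Within apical cells, the 9 genes were hardly correlated with each other. Over their 36 pairs the median r was -0.01, and the highest, 0.53 for Nrp1 with Robo2, rests on the 2 apical cells that held Nrp1. The median apical cell held 4 of the 9 genes, the median basal cell 3 and the median empty chamber 1.

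The V1R of a cell gave a further division within the apical class, clearest for Tenm2. A V1R was called as the receptor of a cell by its share of receptor counts, after counts that could stem from cross-talk between chambers or from shared sequence were set aside. Tenm2 was held by 81.5% of 27 cells (61.9% to 93.7%) with a V1R of the cluster at chr13:22057346-23269474 and by 70% of 20 cells (45.7% to 88.1%) with one at chr6:56924015-58495247. It was held by 17.9% of 28 cells (6.06% to 36.9%) with a V1R at chr7:20099680-24063554 and by 28.6% of 35 cells (14.6% to 46.3%) with one at chr7:7231327-13220657. The intervals of the chromosome 13 cluster and of these chromosome 7 clusters do not overlap. With receptors called from the counts as deposited, the shares were 80% of 20 cells on chromosome 13, and 22.2% of 9 and 24% of 25 cells in those chromosome 7 clusters.

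The clusters differed less in the other genes. Kirrel2 was held by 96.8% of 31 cells with a V1R at chr6:66552180-66810609 and by 72.7% of 22 cells with one at chr17:17703747-21314912. Kirrel3 was held by 22.7% of the latter and 58.1% of the former, with overlapping intervals. Ncam2 was held by 72.7% of 11 cells with a V1R at chr7:26260334-26618464 and by 38.7% to 55.6% in the other 8 clusters.

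**Figure D3:**
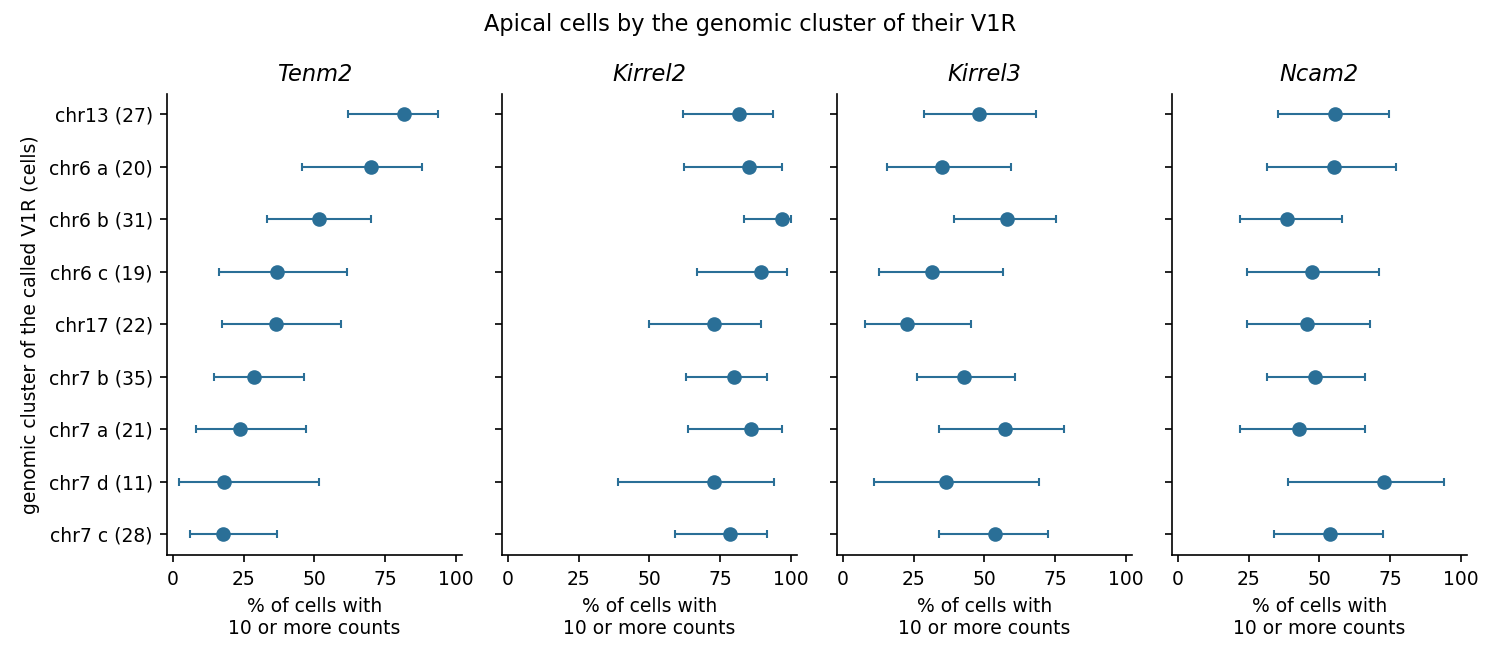
Share of apical cells holding Tenm2, Kirrel2, Kirrel3 and Ncam2 by the genomic cluster of the cell's V1R, with 95% exact intervals and the number of cells in brackets; letters order clusters along a chromosome. Tenm2 runs from 17.9% to 81.5%, while the intervals of Kirrel3 and Ncam2 overlap across the clusters.

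Single receptors differed within a cluster as well as between clusters. Among 21 V1R genes with at least 4 cells, no cell held Tenm2 for 6 of them: Vmn1r85 (0 of 6 cells, highest count 5), Vmn1r58 and Vmn1r56 (0 of 5 each), and Vmn1r90, Vmn1r184 and Vmn1r44 (0 of 4 each). Vmn1r44 lies on chromosome 6 and the other 5 on chromosome 7. Tenm2 reached a median of 35 counts in the 5 cells of Vmn1r28 and the 5 of Vmn1r64, of which 3 and 4 held it. Vmn1r64 lies in the same cluster as Vmn1r56 and Vmn1r58, chr7:5129291-6011010, where Tenm2 was held by 5 of 21 cells in all, so the receptors of that cluster ranged from 0 of 5 to 4 of 5. Kirrel3 was held by all 4 cells of Vmn1r33 (35 to 53 counts), all 5 of Vmn1r64 (26 to 56) and all 4 of Vmn1r218 (22 to 56), against 1 of 6 cells of Vmn1r236. Kirrel2 was at 45 to 129 counts in all 6 cells of Vmn1r37, with a median of 97, and at 1, 3, 6 and 57 counts in the 4 cells of Vmn1r235. Few cells stand behind each receptor, and these receptors are the extremes of 21.

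Pairs of cells give the same comparison over all receptors. Among the pairs of apical cells with the same V1R (51 receptors with 2 or more cells), Tenm2 was in the same state (held or not held) in 62.7%, against 51.3% of 23345 pairs with different ones, and 58.3% of pairs with different V1Rs of the same cluster. The figures for Kirrel2 were 76.3% and 72.2%, for Kirrel3 54.2% and 50.2%, for Ncam2 55.8% and 49.7%, and for Nrp2 76.6% and 76.8%. Cells of 1 receptor still differed in Tenm2 more often than in 1 pair of 3. With calls from the counts as deposited, the lead of same-receptor pairs was 22.5 percentage points for Tenm2 instead of 11.4, while for Kirrel2 it turned from 4.05 to -5.23 and for Robo1 from 4.86 to -1.30. For Ncam2 those calls gave 50.9% of same-receptor pairs and 49.7% of the others.

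In basal cells the division followed the highest family C receptor. Basal neurons hold, besides their chosen V2R, broadly expressed receptors of family C, which comprise Vmn2r1 and the Vmn2r2 group. Cells were grouped by the highest of them only. The genes were not exclusive: Vmn2r1 was held by 79.5% of basal cells and Vmn2r2 by 54.8%, so some cells held both. Vmn2r1 was the highest of the family C genes used in 45 basal cells and one of Vmn2r2 to Vmn2r6 in 22, with none at 10 counts in 6. The 45 are called Vmn2r1 cells below and the 22 the others. Tenm2 was held by 13.3% of the Vmn2r1 cells (5.05% to 26.8%) and 72.7% of the others (49.8% to 89.3%), with medians of 1 and 33 counts. These intervals are well apart.

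Kirrel2 went the other way. It had a median of 54 counts in Vmn2r1 cells and 8 in the others, and was held by 75.6% (60.5% to 87.1%) and 50% (28.2% to 71.8%). Kirrel3 was held by 46.7% and 72.7%, and Robo2 by 64.4% (48.8% to 78.1%) and 90.9% (70.8% to 98.9%). The intervals of Kirrel2, Kirrel3 and Robo2 overlap between the groups. Robo1 was alike, at 66.7% and 63.6%.

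The gene most alike Tenm2 within basal cells was H2-M10.3 (r 0.54), a non-classical class I gene known from V2R neurons. It was held by 24.4% of Vmn2r1 cells and 81.8% of the others. The gene most alike Kirrel2 within basal cells was Pcp4l1 (r 0.65).

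Robo2 and Kirrel2 were inversely related among basal cells (r -0.47 over 73 cells, the lowest of 36 pairs). Kirrel2 had a median of 15.5 counts in the 52 basal cells with Robo2 and 83 in the 21 without. The same held among Vmn2r1 cells, where the medians were 29 (29 cells) and 90 (16 cells). Among the others, Kirrel2 was held by 50% of 20 cells with Robo2 and 50% of 2 without, too few to compare. Over all basal cells the held shares, 61.5% (47.02% to 74.7%) and 85.7% (63.7% to 96.95%), overlap. Basal cells without Robo2 also had a lower median total without receptor genes (137287 against 155782 counts) and a lower Omp median (74 against 89.5). The 13 basal cells with 40 or more counts of Gap43, a gene taken up below, all held Robo2. Of these cells 4 held Kirrel2, with a median of 5 counts. Whether the inverse relation depends on Gap43 was not tested.

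**Figure D4:**
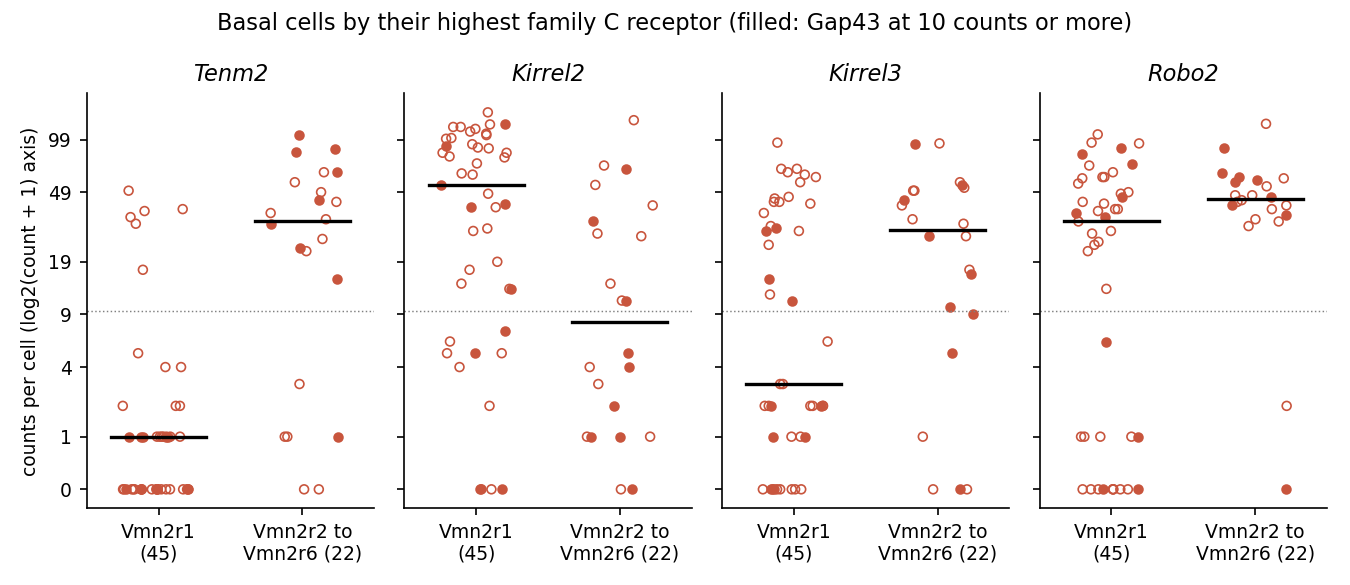
Counts per cell (log2(count + 1) axis) in basal cells with Vmn2r1 (45) or one of Vmn2r2 to Vmn2r6 (22) as the highest family C gene; filled points have 10 or more Gap43 counts, the black line is the median and the dotted line the 10-count limit. Tenm2 has medians of 1 and 33, and Kirrel2 of 54 and 8.

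Only 1 V2R, Vmn2r62, was called in at least 4 basal cells. Its 4 cells all held Robo1 (median 35 counts), and none held Kirrel2. Among 14 basal cells with a V2R at chr17:17703747-21314912, none held Tenm2, which allows a share of up to 23.2%, and 85.7% held Kirrel2. Of 15 cells with a V2R at chr7:7231327-13220657, 40% held Tenm2.

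Gap43, a growth cone protein high in young neurons, was used to ask whether the 9 genes vary with maturation. It was at 10 or more counts in 98 apical cells (34.6%) and 20 of 73 basal cells (27.4%). All cells had been sorted on the Omp promoter, and each of the 20 Gap43-high basal cells held Omp.

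In apical cells none of the 9 genes was called either way, where 4.71% of 16446 genes were called higher in Gap43-high cells and 6.71% in Gap43-low cells. Kirrel2 was held by 75.5% of Gap43-high and 84.9% of Gap43-low apical cells, with medians of 40 and 48 counts. Robo1 and Tenm2 were each held by 51.02% of Gap43-high and 38.4% of Gap43-low cells. Nrp2 was held by 86.7% and 85.4%, so that the gene most widely held in apical cells was at a like share in both.

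In basal cells 2 of the 9 were called. Tenm2 was higher in Gap43-high cells (log2 ratio 1.29), where 7.31% of 12642 genes were called, and was held by 45% of 20 cells against 26.4% of 53. Kirrel2 was higher in Gap43-low cells (log2 ratio of high over low -1.14), where 10.8% of genes were called, and was held by 45% of Gap43-high (23.1% to 68.5%) and 77.4% of Gap43-low cells (63.8% to 87.7%). The intervals overlap, and 1 of 9 in each direction is near the share of all genes called. Fewer were called among genes held by at least 25% of cells in either group, as Tenm2 and Kirrel2 were. There, with Gap43 itself counted, 4.18% were called higher in Gap43-high and 2.80% in Gap43-low cells.

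The family C groups were unevenly spread over these cells: one of Vmn2r2 to Vmn2r6 was highest in 45% of Gap43-high and 24.5% of Gap43-low basal cells. Among cells with Vmn2r1 highest, Tenm2 was held by 0 of 10 Gap43-high (0% to 30.8%) and 6 of 35 Gap43-low cells (6.56% to 33.6%). Its log2 ratio turned to -3.63 there, but these intervals overlap and the ratio rests on the 6 cells. Among the others it was held by 8 of 9 and 8 of 13. The Tenm2 difference with Gap43 in basal cells therefore did not hold within the Vmn2r1 cells. Kirrel2 was held by 6 of 10 and 28 of 35 Vmn2r1 cells, and by 3 of 9 and 8 of 13 of the others, lower with Gap43 in each.

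Robo2 was held by all 13 basal cells with 40 or more Gap43 counts (75.3% to 100%) but by 2 of the 7 with 10 to 39, so it gave no steady order. Between the classes, the log2 ratios of Gap43-high over Gap43-low cells had opposite signs for Nrp2 (-0.14 apical, 0.37 basal) and Robo2 (-0.38 and 0.26). The signs were opposite in both sets of chamber numbers, and none of the ratios reached 2-fold. Few cells stand behind the basal ratio of Nrp2 and the apical ratio of Robo2, so these signs carry little weight. Nrp2 was held by 3 Gap43-high (15%) and 3 Gap43-low basal cells (5.66%). Robo2 was held by 3 Gap43-high (3.06%) and 6 Gap43-low apical cells (3.24%). Between the highest and lowest tertiles of Gap43 counts, the basal ratio of Nrp2 was -0.19, so its opposite sign was lost there.

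**Figure D5:**
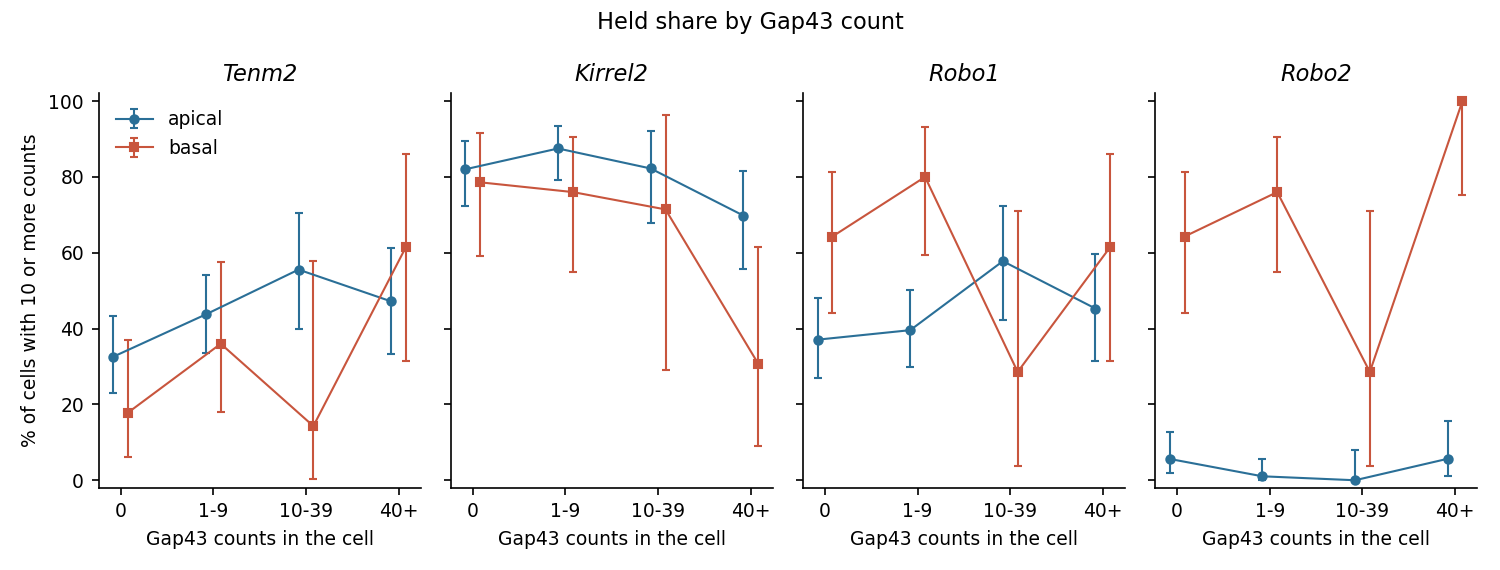
Share of apical and basal cells holding Tenm2, Kirrel2, Robo1 and Robo2 by the Gap43 count of the cell, with 95% exact intervals. The basal group with 10 to 39 Gap43 counts has 7 cells, and Robo2 stands at 28.6% there and at 100% in the 13 basal cells with 40 or more.

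Other genes of the same pathways were read from a list of 61, of which 58 were in the table and 47 had enough counts to compare apical with basal cells. Of these, 4 were called higher in apical cells and 6 in basal cells, where 12.2% and 6.1% of all genes were, and their median log2 ratio was 0.03 against 0.10 for all genes tested. Dpysl3, a cytoplasmic mediator of semaphorin signals, was the only one of the 10 held by over 25% of cells in a class: 44.9% of apical and 93.2% of basal cells, 3.25-fold higher in the latter. Sema3e, a semaphorin, was held by 19.4% of apical and 1.37% of basal cells. The teneurin Tenm1 (10.95% and 1.37%) and the adhesion protein Chl1 (10.2% and 0%) were called higher in apical cells, and Nphs1, a nephrin that binds Kirrels (3.89% and 13.7%), in basal cells. Flrt3, Plxna4, Plxnd1 and Slit2 were held by at most 4.11% of cells in either class.

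With Gap43, 3 of 45 such genes were called higher in Gap43-high apical cells (Sema3f, Slit2 and Vegfa) and 1 in Gap43-low cells (Sdc1), all held by at most 7.14% of cells, where 4.71% and 6.71% of all genes were called. In basal cells 3 of 39 were called higher in Gap43-high cells, among them Enah (held by 35% against 20.8%) and Vegfa (10% against 0%), and 2 in Gap43-low cells (Plxna3 and Srgap3), where 7.31% and 10.8% of all genes were called. Counts this small give no result about the list.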

How the data were processed

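The deposited table holds counts of 5-base molecular identifiers per gene and chamber; the submitters' processing notes name UMI-tools 0.5.3, STAR 2.5.4b, featureCounts 1.6.1 and GRCm38. 1 column belonging to no sample was not used. Classes, held shares (10 counts), Gap43 groups (10 counts) and the rule of size were computed with Python 3.11.15, pandas 2.3.3 and scipy 1.17.1. Summed counts were scaled to totals without 461 receptor genes, and a class at 0 was set to 3 counts. Receptors needed 10 counts and 50% of a cell's receptor counts after removal of counts under 3 times the 75th percentile plus 5 of chambers in the same title row or number; genes within 1 Mb formed a cluster. Positions are from GENCODE M21. The rule of size was run on simulated counts, where it also called genes that had not been changed, mostly genes in few cells, so a share of all genes called is not a share of genes that differ. The members, lists and rules were chosen with earlier results of these data known. Named genes are the 9, class genes, called pathway genes, the 3 most alike, and receptors with at least 4 cells; H2-M10.3 was named after its values were seen, as were the Gap43 values by family C group. Strandedness is not given in the sources used here; antisense genes in the 9 had at most 98 counts over the single cells, and Gm37121, on the strand of Nrp2 and inside it, had 958. Some items are not reported here.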

Additional observations from a re-analysis of the deposited data

How the results depend on the processing

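The 4 genes called between classes were called in 11 of 11 alternatives for Nrp2, Robo2 and Ncam2 and in 10 of 11 for Slit1, which was missed among chambers numbered 11 to 20. The share of cells with Nrp2 and Robo2 was 6.18% at 5 counts. Under the cross-talk rule it was 0%, but that rule kept Nrp2 in only 3 of the cells that held it, so it says nothing of the overlap. In apical cells the count called with Gap43 was 1 (Nrp1, sparse) in chambers 1 to 10. In basal cells it was 0 in chambers 1 to 10 and 6 in chambers 11 to 20, instead of 2. Restricted, after the data were seen, to cells with Vmn2r1 highest, 2 were called (Kirrel3 and Tenm2) and Tenm2 reversed to -3.63. That Tenm2 ratio rests on 6 Gap43-low cells that held the gene. The causes were not tested. With 73 basal cells of 1 chip, the Gap43 results in basal cells rest on 20 cells. No paired analysis was possible because each class is 1 sample of 1 chip and no result comes from a test.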
